A study of Gallus gallus with 13 samples.

Results

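The RNA of chicken limb cultures expressing wild-type HOXD13 (HOXD13 wt) was compared with that of cultures expressing PITX1, gene by gene. Both cultures were micromasses, dense droplets of mesenchymal cells from limb buds of HH24 embryos (a Hamburger-Hamilton stage of limb outgrowth), to which virus was added before plating and which were harvested after 9 days. HOXD13 wt cultures received RCASBP(A)-3xFLAG-mHoxd13(wt), a replicating avian retrovirus carrying the FLAG-tagged mouse protein, and PITX1 cultures received RCASBP(A)-3xFLAG-cPITX1(wt), carrying the FLAG-tagged chicken protein. Neither group is a control for the other. Parallel cultures, used here only to place the levels, received mouse HOXD13 with the Q317K or the Q317R change (a homeodomain glutamine replaced by lysine or by arginine) or the empty RCASBP(A) virus. The libraries compared are 2 of the 5 RNA libraries, chosen by their labels, and every group had 1 library of poly(A)-selected RNA, so no difference below has a replicate check and no p-value was computed.

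A gene was represented by its transcript of highest mean RPKM (reads scaled by transcript length and library total) over the 5 libraries. A gene was kept where it reached an RPKM of at least 5 in one or both of the compared libraries, which left 12516 of 16737 Ensembl genes, 7656 of them with a printable symbol. The ratio used for counting was log2 of (RPKM + 1) in HOXD13 wt over (RPKM + 1) in PITX1, so that a positive value means higher in HOXD13 wt, and this scale understates differences of low genes. A gene counted as higher or lower where this ratio passed 2-fold. Fold values given for single genes are plain RPKM ratios, and the range in brackets is a 95% exact (Clopper-Pearson) interval on the reads, which covers counting error only since reads are not independent molecules.

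HOXD13 is the most distal of the HOXD transcription factors of the limb bud and patterns the digits, where its mutations cause digit malformations. PITX1 is a homeodomain factor of the hindlimb bud and helps to give the hindlimb its identity. The base that a homeodomain prefers next to its TAAT-like core depends in part on a residue of its recognition helix, which is a glutamine in HOXD13 and a lysine in PITX1. In micromass culture, limb mesenchyme condenses, lays down cartilage matrix rich in type II collagen and aggrecan and, with time, in part becomes hypertrophic, the state marked by type X collagen. The cells outside the cartilage nodules form a fibroblast-like tissue around them.

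The read totals behind the RPKM values were 14931544 for HOXD13 wt and 16114218 for PITX1, and between 14069766 and 16793118 over all 5 libraries. They were recovered from the values themselves and are totals used for scaling, not a stated sequencing depth. None of the 16737 genes, kept or not, was at 0 in any library. Most genes stood close together, with a median log2 ratio of 0.03, a middle part from −0.18 (25th percentile) to 0.24 (75th), and a 5th and a 95th percentile of −0.75 and 0.80. In HOXD13 wt, 411 genes were at least 2-fold higher than in PITX1, which is 3.28% of those kept, and 384 were at least 2-fold lower, which is 3.07%. Together these are 795 genes or 6.35%, and every count in a gene group below is to be read against these shares. The shares were larger among genes at higher levels. With a minimum of 20 RPKM in place of 5, 298 genes were higher and 300 lower among 5224 kept. A group of well-expressed genes can therefore exceed 6.35% for its level alone. The members of the groups were chosen with earlier results of these data known. A share above 6.35%, or the rank of a list by its median, is therefore a description of the chosen members and not evidence about a pathway. Past 4-fold there were 84 higher and 79 lower genes, and past 8-fold 22 and 18. The higher genes had a median of 37.0 RPKM in HOXD13 wt and 10.7 RPKM in PITX1, and the lower genes one of 12.3 RPKM in HOXD13 wt and 39.2 RPKM in PITX1. Just past the 2-fold line were SULT1E1 on the higher side, at 59.1 RPKM in HOXD13 wt against 29.0 in PITX1, and PAK1 on the lower side, at 9.72 against 20.4. FGFR2, at 48.7 against 24.0, and SCUBE2, at 7.93 against 16.9, were just short of it. At the minimum for keeping a gene, TNNT2 (4.42 and 5.0009 RPKM) was just inside and TEKT4 (4.98 and 4.9997 RPKM) just outside. Where a called gene had several transcripts, all of them had the same sign in 105 of 109 higher and 90 of 91 lower genes, against 77.6% of all 2758 kept genes with several transcripts. This is no independent check, since transcripts of a gene can share reads and signs mix easily where levels are nearly equal.

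**Figure D1:**
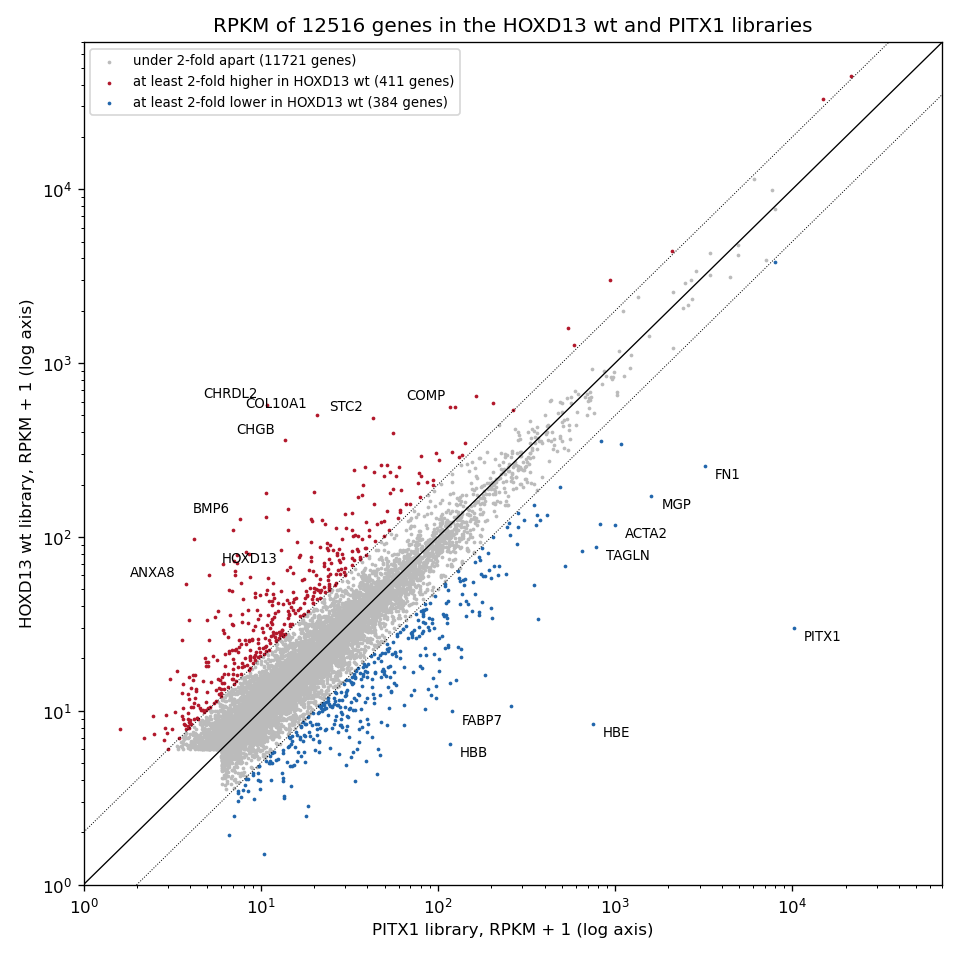
Each point is a kept gene, with its RPKM + 1 in the PITX1 library on the horizontal log axis and in the HOXD13 wt library on the vertical log axis. The solid line marks equal levels and the dotted lines a 2-fold difference. Of 12516 genes, 411 lie above the upper dotted line (red) and 384 below the lower one (blue), with CHRDL2, CHGB and COL10A1 farthest above and PITX1, HBE and FN1 far below.

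The row of PITX1, the gene carried by the PITX1 virus, set that library apart from all others as its label says. The PITX1 row stood at 28.9 RPKM in HOXD13 wt and 10233 in PITX1, and at 36.4 RPKM in Q317K, 24.8 in Q317R and 64.5 in the empty vector. It was 354-fold lower in HOXD13 wt than in PITX1 (322 to 389.8), and since the virus carries the chicken gene, the reads of the transgene and of the cells' own PITX1 fall on the same row. The HOXD13 row stood at 63.4 RPKM in HOXD13 wt, 13.1 in PITX1, 36.8 in Q317K, 53.7 in Q317R and 16.6 in the empty vector. It was 4.83-fold higher in HOXD13 wt (3.73 to 6.34), on 318 and 71 reads, but the transgene is the mouse gene and the row is chicken, so this value does not measure the dose of the virus. All libraries with a HOXD13 virus lay above both others at this row.

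Besides HOXD13 and PITX1 themselves, the list of limb patterning transcription factors held 32 kept genes, of which 27 were under 2-fold apart, including every other HOX gene kept. Of these 32, 2 were higher and 3 lower, or 15.6%, with a median log2 ratio of 0.12. TBX4, a T-box factor of the hindlimb that is known as a target of PITX1, was lower in the PITX1 culture than in all others, at 36.7 RPKM in HOXD13 wt, 13.2 in PITX1, 26.8 in Q317K, 29.02 in Q317R and 34.1 in the empty vector, and so 2.78-fold higher in HOXD13 wt than in PITX1 (2.46 to 3.16). TBX5, its counterpart of the forelimb, stood at 17.6 RPKM in HOXD13 wt against 16.2 in PITX1. LHX9, a LIM-homeodomain factor of the distal bud, stood at 21.8 RPKM in HOXD13 wt against 8.73 in PITX1 and was 2.50-fold higher. On the lower side, TBX3, a T-box factor of the limb margins, stood at 14.8 RPKM in HOXD13 wt against 36.5 in PITX1. PITX3, a paralog of PITX1, stood at 9.19 RPKM in HOXD13 wt against 21.9 in PITX1. PITX1 and PITX3 are alike in their homeodomains, and how the authors' counting split reads between their rows is not known here, so the level of PITX3 is uncertain.

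Secreted antagonists and a ligand of the BMP family were among the genes most above PITX1 in HOXD13 wt. CHRDL2 (chordin-like 2), a secreted protein that binds BMPs, stood at 576 RPKM in HOXD13 wt, 9.88 in PITX1, 7.47 in Q317K, 89.7 in Q317R and 62.5 in the empty vector. It was 58.3-fold higher in HOXD13 wt than in PITX1 (51.5 to 66.3), the largest positive ratio of any kept gene, and the HOXD13 wt level also exceeded those of the other 3 cultures. The ligand BMP6 stood at 125 RPKM in HOXD13 wt, 6.59 in PITX1, 14.7 in Q317K, 51.9 in Q317R and 13.7 in the empty vector and was 19.02-fold higher (16.1 to 22.7). NOG (noggin), another secreted BMP antagonist, stood at 92.1 RPKM in HOXD13 wt, 15.1 in PITX1, 12.3 in Q317K, 53.3 in Q317R and 36.7 in the empty vector and was 6.12-fold higher (5.17 to 7.27). For all 3 genes Q317R was the next highest library, and PITX1 and Q317K were the lowest for CHRDL2 and NOG.

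The rest of the BMP and TGF-beta list did not move one way. Of 22 kept members, 3 were higher and 3 lower, or 27.3%, with a median log2 ratio of 0.20. The lower ones were LTBP2, FSTL3 and TGFB3. LTBP2, a microfibril protein of the family named latent TGF-beta binding proteins, was at 22.1 RPKM in HOXD13 wt, 129 in PITX1, 34.6 in Q317K, 13.6 in Q317R and 49.8 in the empty vector, 5.81-fold lower in HOXD13 wt (5.51 to 6.12), and PITX1 was the highest of the 5 libraries. FSTL3, a secreted inhibitor of activin, stood at 10.2 RPKM in HOXD13 wt against 31.4 in PITX1, and the ligand TGFB3 at 102 RPKM in HOXD13 wt against 253 in PITX1. The ligands BMP2 (12.999 against 18.7 RPKM) and BMP4 (60.8 against 42.3 RPKM), the antagonist GREM1 (18.4 against 10.2 RPKM) and the inhibitory SMAD6 (53.5 against 44.1 RPKM), each given as HOXD13 wt against PITX1, were under 2-fold apart.

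Type X collagen was the third largest ratio among genes with a symbol, while most other genes of hypertrophic cartilage and bone were under 2-fold apart. COL10A1 stood at 502 RPKM in HOXD13 wt, 19.7 in PITX1, 14.95 in Q317K, 40.3 in Q317R and 67.7 in the empty vector, which put HOXD13 wt far above every other culture and 25.5-fold above PITX1 (23.6 to 27.7). ANXA8, a calcium-dependent phospholipid-binding annexin placed in this list, stood at 52.8 RPKM in HOXD13 wt, 2.78 in PITX1, 2.90 in Q317K, 4.92 in Q317R and 18.2 in the empty vector and was 19.03-fold higher (14.1 to 26.2). FGFBP2, a secreted FGF-binding protein, stood at 59.4 RPKM in HOXD13 wt, 4.09 in PITX1, 2.61 in Q317K, 16.7 in Q317R and 9.68 in the empty vector and was 14.5-fold higher (11.8 to 18.1). These were the only 3 of the 15 kept members that were higher, and 1 was lower, ENPP1, an ectoenzyme that makes the mineralisation inhibitor pyrophosphate, at 4.26 RPKM in HOXD13 wt against 11.5 in PITX1. The list median was 0.19. The alkaline phosphatase ALPL (61.7 against 62.6 RPKM), the bone matrix protein SPP1 (398 against 323 RPKM), the collagenase MMP13 (15.7 against 11.3 RPKM), the ligand IHH (12.5 against 11.9 RPKM) and the bone sialoprotein IBSP (10.96 against 17.2 RPKM) were under 2-fold apart, in HOXD13 wt against PITX1.

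**Figure D2:**
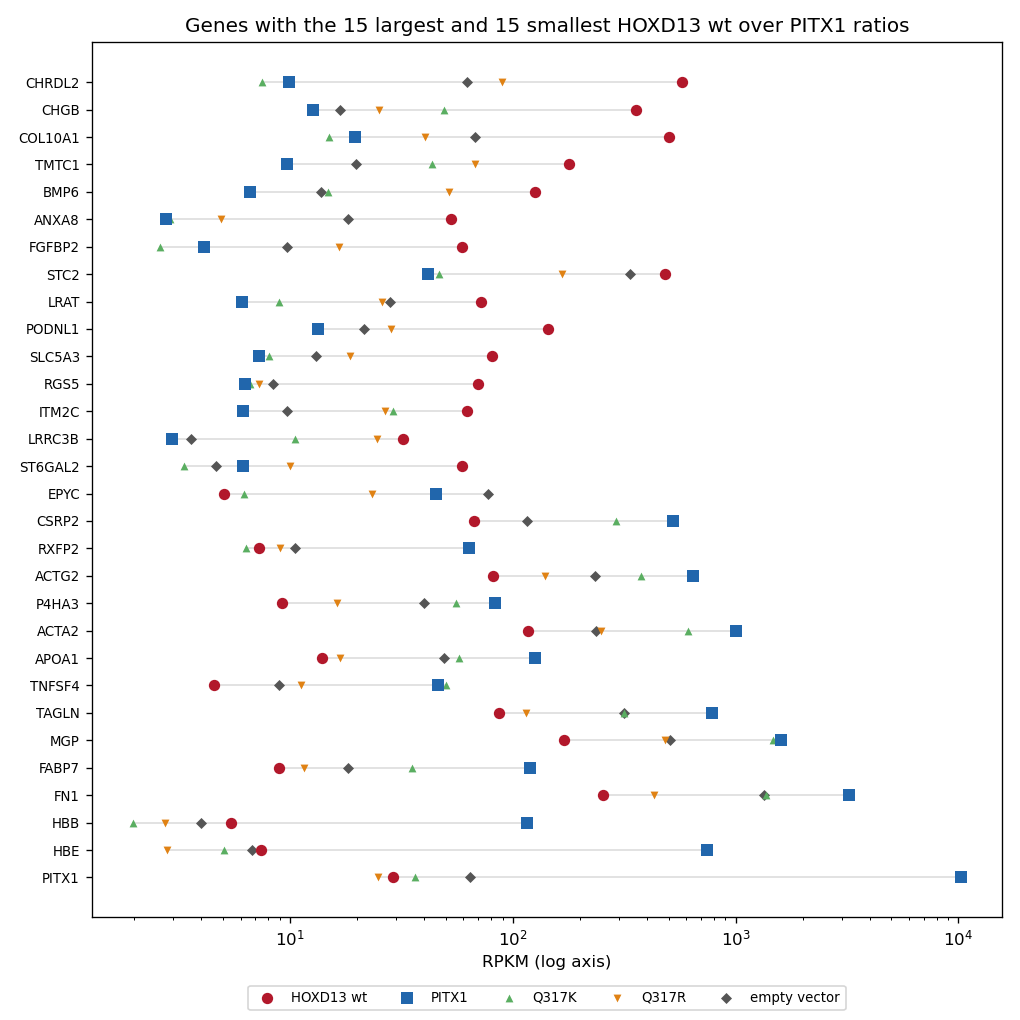
RPKM on a log axis of the genes with the 15 largest (upper rows) and 15 smallest (lower rows) log2 ratios of HOXD13 wt over PITX1 among genes with a symbol, in each of the 5 libraries. Red circles are HOXD13 wt and blue squares PITX1, and the smaller symbols are Q317K, Q317R and the empty vector, 1 library each. In most rows the other 3 libraries lie between the compared ones, while HBE and HBB are high in the PITX1 library alone.

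Transcripts of type II collagen, aggrecan and a type IX collagen chain were present at high levels in both cultures and were under 2-fold apart. Type II collagen COL2A1 stood at 4279 RPKM in HOXD13 wt, 3437 in PITX1, 1983 in Q317K, 11296 in Q317R and 15370.3 in the empty vector. Both compared cultures were thus well below the empty vector and Q317R, and HOXD13 wt was 1.25-fold above PITX1 (1.23 to 1.26). Aggrecan, ACAN, was at 281 RPKM in HOXD13 wt against 208 in PITX1, and the type IX collagen chain COL9A1 at 186 RPKM in HOXD13 wt against 158 in PITX1. The cartilage matrix list nevertheless held 5 higher and 4 lower genes among 20 kept, or 45%, around a median of −0.00.

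COMP, a pentameric matrix protein of cartilage and tendon, stood at 560.2 RPKM in HOXD13 wt, 124 in PITX1, 63.6 in Q317K, 268 in Q317R and 649 in the empty vector and was 4.52-fold higher in HOXD13 wt than in PITX1 (4.39 to 4.66). HOXD13 wt and the empty vector were close at this gene, and PITX1 and Q317K were the lowest. The matrilins, adaptor proteins that link collagen fibrils to proteoglycans, were also higher where called: MATN4 stood at 1586 RPKM in HOXD13 wt, 542 in PITX1, 488 in Q317K, 2489 in Q317R and 531 in the empty vector, MATN2 at 22.3 RPKM in HOXD13 wt against 6.57 in PITX1 and MATN1 at 34.6 RPKM in HOXD13 wt against 16.4 in PITX1. The collagen COL27A1 was at 109 RPKM in HOXD13 wt against 52.2 in PITX1, and MATN3 (3.95 against 5.13 RPKM) was under 2-fold apart. On the lower side stood EPYC (epiphycan), a small leucine-rich proteoglycan of growth cartilage, at 5.03 RPKM in HOXD13 wt, 45.2 in PITX1, 6.23 in Q317K, 23.2 in Q317R and 77.1 in the empty vector, 8.98-fold lower in HOXD13 wt (7.47 to 10.9). CILP, a protein of the intermediate layer of cartilage, was at 6.70 RPKM in HOXD13 wt against 22.2 in PITX1, CYTL1, a secreted cartilage cytokine-like protein, at 45.7 RPKM in HOXD13 wt against 135 in PITX1, and HAPLN1, the link protein that fastens aggrecan to hyaluronan, at 56.5 RPKM in HOXD13 wt against 141 in PITX1. For EPYC, CYTL1 and HAPLN1 the empty vector was higher than both compared cultures.

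Called regulators of chondrocytes were all higher in HOXD13 wt. Of 10 kept, 3 were higher and none lower, with a median of 0.58 on the log2 scale. SOX8, an SRY-related factor close to SOX9, stood at 258 RPKM in HOXD13 wt, 46.8 in PITX1, 52.4 in Q317K, 121 in Q317R and 269 in the empty vector and was 5.51-fold higher (5.18 to 5.87). TRPS1, a GATA-type repressor of the growth plate, stood at 86.2 RPKM in HOXD13 wt, 20.5 in PITX1, 33.3 in Q317K, 53.9 in Q317R and 45.9 in the empty vector, and SOX6, a partner of SOX9 in cartilage, at 20.8 RPKM in HOXD13 wt, 8.88 in PITX1, 8.998 in Q317K, 13.6 in Q317R and 22.8 in the empty vector. SOX9 itself, the master regulator of cartilage, was at 259.7 RPKM in HOXD13 wt against 133 in PITX1, 1.95-fold apart (1.87 to 2.03) and so just under the 2-fold line. PITX1 was the lowest library for SOX8, TRPS1 and SOX6.

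Enzymes of proteoglycan synthesis and sulfation held 5 higher genes and 1 lower among 30 kept, or 20%, with a median of 0.14. CSGALNACT1, which starts chondroitin chains, stood at 112 RPKM in HOXD13 wt, 25.5 in PITX1, 61.1 in Q317K, 166 in Q317R and 70.1 in the empty vector. The sulfotransferase CHST1 stood at 75.9 RPKM in HOXD13 wt, 18.3 in PITX1, 22.4 in Q317K, 156 in Q317R and 64.4 in the empty vector. PITX1 was the lowest of the 5 libraries for both enzymes, and Q317R the highest. The sulfate transporter SLC26A2 (37.2 against 15.2 RPKM), the sulfatase SULF2 (20.7 against 8.35 RPKM) and PAPSS1, which makes the sulfate donor (199 against 92.3 RPKM), were higher as well, in HOXD13 wt against PITX1. The single lower gene was DSE, the epimerase that turns chondroitin into dermatan sulfate, at 20.05 RPKM in HOXD13 wt against 45.96 in PITX1.

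Fibronectin headed the genes of the interstitial matrix that were lower in HOXD13 wt. FN1, the fibronectin of early condensations and of fibroblast matrix, stood at 254 RPKM in HOXD13 wt, 3221 in PITX1, 1371 in Q317K, 430.2 in Q317R and 1344 in the empty vector and was 12.7-fold lower in HOXD13 wt than in PITX1 (12.5 to 12.8). ELN, elastin, stood at 117 RPKM in HOXD13 wt, 817 in PITX1, 402 in Q317K, 105 in Q317R and 302 in the empty vector and was 6.98-fold lower (6.74 to 7.23). For both genes PITX1 was the highest of the 5 libraries and HOXD13 wt and Q317R the lowest. THBS2 (thrombospondin 2) was at 28.9 RPKM in HOXD13 wt against 94.4 in PITX1, the small proteoglycan LUM at 58.9 RPKM in HOXD13 wt against 182 in PITX1, the collagen chain COL6A3 at 193 RPKM in HOXD13 wt against 485 in PITX1, tenascin C (TNC) at 80.05 RPKM in HOXD13 wt against 192 in PITX1 and the fibulin FBLN1 at 63.1 RPKM in HOXD13 wt against 129 in PITX1.

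As many interstitial genes stood on the other side. Of 29 kept members of the interstitial matrix and tendon list, 7 were higher and 7 lower, or 48.3%, with a median of −0.24. FBLN5, a fibulin of elastic fibres, stood at 42.8 RPKM in HOXD13 wt, 6.92 in PITX1, 33.4 in Q317K, 44.6 in Q317R and 17.5 in the empty vector and was 6.19-fold higher in HOXD13 wt (5.30 to 7.25). COL8A1, a short-chain network collagen, stood at 557 RPKM in HOXD13 wt, 117 in PITX1, 233 in Q317K, 442 in Q317R and 273 in the empty vector and was 4.78-fold higher (4.62 to 4.94). PITX1 was the lowest of the 5 libraries for both. The proteoglycan OGN (52.7 against 23.3 RPKM), fibulin FBLN2 (128 against 58.2 RPKM), decorin DCN (286 against 131 RPKM), the type I collagen chain COL1A2 (4433 against 2093 RPKM) and asporin ASPN (50.2 against 23.2 RPKM) were higher too, in HOXD13 wt against PITX1.

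MGP, the matrix Gla protein that inhibits calcification of cartilage, lay outside these lists and was among the largest negative ratios. It stood at 171 RPKM in HOXD13 wt, 1600.0 in PITX1, 1474 in Q317K, 481 in Q317R and 507 in the empty vector, 9.38-fold lower in HOXD13 wt than in PITX1 (8.92 to 9.86), with Q317K close to PITX1. P4HA3, a subunit of a prolyl hydroxylase that modifies collagen, stood at 9.24 RPKM in HOXD13 wt, 83.3 in PITX1, 55.4 in Q317K, 16.3 in Q317R and 39.8 in the empty vector and was 9.02-fold lower (7.07 to 11.7).

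Called genes of adhesion and basement membrane were lower in HOXD13 wt with 1 exception. Of 23 kept genes, 8 were lower, 1 was higher and 14 were under 2-fold apart, so that the called share was 39.1%, and the median of −0.70 was the lowest of the 31 lists. The basement membrane linker NID2 stood at 32.99 RPKM in HOXD13 wt, 202 in PITX1, 113 in Q317K, 29.5 in Q317R and 93.1 in the empty vector and was 6.11-fold lower (5.84 to 6.40). The laminin chain LAMA5 stood at 11.3 RPKM in HOXD13 wt, 69.05 in PITX1, 62.9 in Q317K, 41.3 in Q317R and 20.02 in the empty vector and was 6.09-fold lower (5.80 to 6.40). PITX1 was the highest library for both. ITGA8, an integrin chain that binds fibronectin and nephronectin, stood at 36.1 RPKM in HOXD13 wt, 169 in PITX1, 111 in Q317K, 37.1 in Q317R and 31.8 in the empty vector, 4.69-fold lower (4.47 to 4.93), and ITGBL1, an integrin beta-like secreted protein, at 6.88 RPKM in HOXD13 wt, 34.8 in PITX1, 65.1 in Q317K, 19.7 in Q317R and 22.8 in the empty vector. Laminin LAMB1 (19.9 against 84.7 RPKM), N-cadherin CDH2 (12.7 against 41.6 RPKM), the collagen-binding integrin chain ITGA11 (125 against 377 RPKM) and agrin AGRN (15.6 against 43.3 RPKM) completed the lower genes, in HOXD13 wt against PITX1. The exception was CDH4 (R-cadherin), a classical cadherin, at 56.98 RPKM in HOXD13 wt, 9.94 in PITX1, 18.4 in Q317K, 19.3 in Q317R and 9.24 in the empty vector, 5.74-fold higher in HOXD13 wt (5.18 to 6.37).

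**Figure D3:**
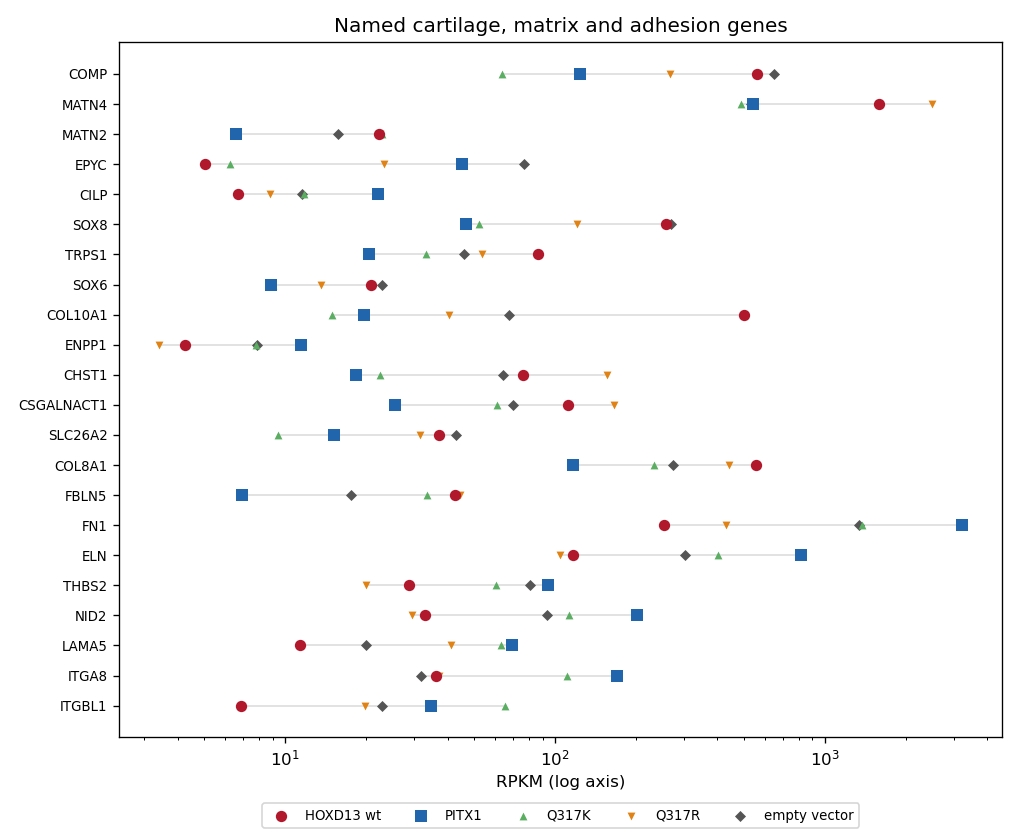
RPKM on a log axis of 22 named genes of cartilage matrix, chondrocyte regulation, hypertrophy, sulfation, interstitial matrix and adhesion (top to bottom) in each of the 5 libraries. Red circles are HOXD13 wt and blue squares PITX1, 1 library each. FN1 and ELN are highest in PITX1, at 3221 and 817 RPKM, and COL10A1 is highest in HOXD13 wt, at 502 RPKM.

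Matrix proteases and their inhibitors split evenly, with 5 higher and 6 lower among 29 kept, or 37.9%, around a median of −0.18. The protease inhibitor SERPINI1 (neuroserpin) stood at 48.3 RPKM in HOXD13 wt, 5.60 in PITX1, 8.90 in Q317K, 74.4 in Q317R and 5.27 in the empty vector and was 8.62-fold higher in HOXD13 wt (7.36 to 10.1). ADAMTS3, a procollagen peptidase that in mouse and human also acts in lymphatic growth, was at 198 RPKM in HOXD13 wt against 36.7 in PITX1, the membrane-type protease MMP17 at 61.2 RPKM in HOXD13 wt against 14.2 in PITX1, the thrombin and urokinase inhibitor SERPINE2 at 649.6 RPKM in HOXD13 wt against 164 in PITX1 and ADAMTS17 at 34.1 RPKM in HOXD13 wt against 15.6 in PITX1. PITX1 was the lowest library for ADAMTS3. Lower in HOXD13 wt were SERPINF1 (pigment epithelium-derived factor) at 26.02 RPKM in HOXD13 wt against 105 in PITX1, the metalloproteinase inhibitor TIMP3 at 341 RPKM in HOXD13 wt against 1083 in PITX1, the procollagen peptidase ADAMTS2 at 34.2 RPKM in HOXD13 wt against 108 in PITX1, ADAMTS12 at 16.02 RPKM in HOXD13 wt against 47.3 in PITX1, ADAMTSL3 at 7.35 RPKM in HOXD13 wt against 19.4 in PITX1 and the aggrecanase ADAMTS5 at 8.64 RPKM in HOXD13 wt against 18.6 in PITX1.

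Smooth muscle actins were among the genes farthest below PITX1 in HOXD13 wt. ACTA2, smooth muscle alpha-actin, stood at 117 RPKM in HOXD13 wt, 999 in PITX1, 608 in Q317K, 249 in Q317R and 237 in the empty vector, and was 8.55-fold lower in HOXD13 wt than in PITX1 (8.24 to 8.88). TAGLN (transgelin), an actin-binding protein of smooth muscle and myofibroblasts, stood at 86.4 RPKM in HOXD13 wt, 782 in PITX1, 316 in Q317K, 115 in Q317R and 315 in the empty vector and was 9.05-fold lower (8.36 to 9.82). HOXD13 wt was the lowest and PITX1 the highest of the 5 libraries for both. ACTG2, smooth muscle gamma-actin, stood at 81.6 RPKM in HOXD13 wt, 647 in PITX1, 375 in Q317K, 139.8 in Q317R and 233 in the empty vector, and CSRP2, a LIM protein of smooth muscle, at 67.3 RPKM in HOXD13 wt, 523 in PITX1, 292 in Q317K, 67.4 in Q317R and 115 in the empty vector. ACTC1, the cardiac alpha-actin of early muscle, stood at 21.97 RPKM in HOXD13 wt against 51.996 in PITX1. Actins are close in sequence, so the share of reads that belongs to each row is uncertain.

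Most of the wider list of smooth muscle and pericyte markers was under 2-fold apart. Of 12 kept markers, 3 were lower (ACTA2, ACTG2 and TAGLN), 1 was higher and 8 were neither, with a median of −0.44. The summed level of all 13 markers found, kept or not, was 571 RPKM in HOXD13 wt, 2724 in PITX1, 1676 in Q317K, 821 in Q317R and 1120.4 in the empty vector. Between HOXD13 wt and PITX1, the difference of these sums came almost wholly from ACTA2, ACTG2 and TAGLN. The marker called higher was RGS5, a regulator of G protein signalling known from pericytes, at 69.5 RPKM in HOXD13 wt, 6.31 in PITX1, 6.64 in Q317K, 7.25 in Q317R and 8.35 in the empty vector, 11.004-fold higher in HOXD13 wt (9.13 to 13.4). The actin-binding CALD1 (43.7 against 49.1 RPKM), the myosin light chain kinase MYLK (13.5 against 8.73 RPKM), MYOCD, the coactivator that drives smooth muscle genes (6.57 against 12.2 RPKM), MCAM (39.8 against 67.4 RPKM) and PDGFRB (95.9 against 135 RPKM) were under 2-fold apart, in HOXD13 wt against PITX1, and the defining smooth muscle myosin MYH11 stood near 1 RPKM in every library (1.11 against 1.13 RPKM). In RNA from whole cultures fewer cells of a type and less RNA per cell cannot be told apart, and the part of these markers in the differences of matrix and adhesion genes was not tested.

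A pair of globins was far higher in the PITX1 library than anywhere else. HBE, the embryonic epsilon-type globin, stood at 7.43 RPKM in HOXD13 wt, 747 in PITX1, 5.08 in Q317K, 2.80 in Q317R and 6.77 in the empty vector, 101-fold lower in HOXD13 wt than in PITX1 (77.9 to 132). HBB stood at 5.46 RPKM in HOXD13 wt, 116 in PITX1, 1.97 in Q317K, 2.76 in Q317R and 4.001 in the empty vector, 21.2-fold lower (15.7 to 29.4), and since these globins resemble each other, the split of reads between them is uncertain. The summed level of all 11 erythroid markers found, kept or not, was 139.5 RPKM in HOXD13 wt, 949.5 in PITX1, 147 in Q317K, 160.3 in Q317R and 191 in the empty vector. Apart from the globins, no kept erythroid marker was 2-fold lower in HOXD13 wt. The erythroid factors TAL1 (7.44 against 4.35 RPKM), KLF1 (21.3 against 18.1 RPKM) and GFI1B (5.65 against 3.76 RPKM), the transferrin receptor TFRC (44.9 against 28.3 RPKM) and the heme enzyme FECH (8.90 against 9.55 RPKM) were under 2-fold apart, and the carbonic anhydrase CA2 was higher (26.2 against 11.8 RPKM), each in HOXD13 wt against PITX1. Over all 5 libraries TAL1 and GFI1B stayed between 3.69 and 7.44 RPKM and KLF1 between 16.9 and 30.3 RPKM, also where globin levels were low. These factors therefore do not show whether erythroid cells were present. The alpha-type globin HBAD, which was under the minimum, was at 3.89 RPKM in HOXD13 wt against 2.28 in PITX1.

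Markers of 6 other cell types held 7 called genes among 50 kept, 2 higher and 5 lower in HOXD13 wt, a share of 14% against 6.35% over all kept genes. Of 10 kept skeletal muscle markers only ACTC1 was called. MYOD1 (5.56 against 5.94 RPKM), MYOG (5.67 against 5.72 RPKM) and MYF5 (5.93 against 6.19 RPKM), the factors that determine muscle, were level but near the minimum of 5 RPKM. Levels this low do not show whether muscle cells were present. Of 9 kept endothelial markers, ERG, an ETS factor of endothelium and of cartilage, was 2.59-fold higher in HOXD13 wt (at 121 RPKM in HOXD13 wt against 46.5 in PITX1), and the VEGF receptor FLT1 was 9.51-fold lower (at 1.83 RPKM in HOXD13 wt against 17.4 in PITX1). PECAM1 (5.997 against 4.32 RPKM) and TIE1 (7.90 against 7.93 RPKM) were level. Of 13 epithelial markers, the keratin KRT19 (10.9 against 42.8 RPKM) and the integrin chain ITGB4 (10.5 against 27.6 RPKM) were lower. Of 10 neuronal and Schwann markers, GAP43, a growth cone protein, was higher (17.2 against 4.06 RPKM), and FABP7, a fatty acid binding protein of glia, was lower. FABP7 stood at 8.91 RPKM in HOXD13 wt, 119 in PITX1, 35.1 in Q317K, 11.6 in Q317R and 18.2 in the empty vector, 13.4-fold lower in HOXD13 wt than in PITX1 (10.8 to 16.6), whereas the Schwann cell factor SOX10 was at 8.07 RPKM in HOXD13 wt against 10.3 in PITX1. None of 4 macrophage and blood markers and none of 4 adipocyte markers was 2-fold apart, with C1QA (6.81 against 13.6 RPKM), C1QC (12.01 against 20.8 RPKM), LPL (25.7 against 45.5 RPKM) and GPD1 (5.10 against 6.30 RPKM) the widest. No marker found in the table was at 0 in either library. This held for every gene of the table, so a low level of a marker does not show that its cell type was present. Sums were taken over all markers found, kept or not. The summed levels of the skeletal muscle markers were 99.01 RPKM in HOXD13 wt, 133 in PITX1, 206 in Q317K, 105 in Q317R and 149.8 in the empty vector. Those of the endothelial markers were 233 RPKM in HOXD13 wt, 158 in PITX1, 246 in Q317K, 169 in Q317R and 193 in the empty vector. The epithelial markers summed to 141 RPKM in HOXD13 wt, 185 in PITX1, 147 in Q317K, 203 in Q317R and 171 in the empty vector, and the neuronal and Schwann markers to 105 RPKM in HOXD13 wt, 188 in PITX1, 121 in Q317K, 93.1 in Q317R and 118 in the empty vector. The macrophage and blood markers summed to 48.6 RPKM in HOXD13 wt, 66.3 in PITX1, 64.6 in Q317K, 40.8 in Q317R and 62.95 in the empty vector, and the adipocyte markers to 79.2 RPKM in HOXD13 wt, 106 in PITX1, 97.9 in Q317K, 127 in Q317R and 106 in the empty vector. Between HOXD13 wt and PITX1, the difference of the endothelial sums came largely from ERG. The neuronal and Schwann sum was higher in PITX1 through FABP7, while the median log2 ratio of that list was 0.26, on the HOXD13 wt side. The difference of the epithelial sums came largely from KRT19 and ITGB4. The part of these cell types in the other differences was not tested.

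The FGF, hedgehog and WNT lists each held genes called higher and none called lower. Their lowest log2 ratios were −0.94 (FGF), −0.17 (hedgehog) and −0.91 (WNT), so the FGF and WNT lists each had a member just short of 2-fold lower. In the FGF list 4 of 14 kept genes were higher, with a median of 0.57, namely FGFBP2 and, narrowly, the receptors FGFR3 (73.8 against 35.4 RPKM) and FGFR1 (534 against 265 RPKM) and the receptor-binding membrane protein FLRT3 (36.5 against 17.4 RPKM). FGFR2 (48.7 against 23.96 RPKM) and the feedback inhibitor SPRY2 (38.6 against 21.4 RPKM) were short of 2-fold. In the hedgehog list 3 of 12 were higher, with a median of 0.26, and all 3 bind hedgehog ligands at the cell surface: CDON (45.3 against 17.3 RPKM), GAS1 (207 against 86.2 RPKM) and HHIP, the hedgehog-interacting inhibitor (15.1 against 6.38 RPKM). HOXD13 wt was the highest of the 5 libraries for CDON and GAS1. HHIP stood at 57.5 RPKM in Q317K, 14.1 in Q317R and 14.5 in the empty vector, so HOXD13 wt was close to the empty vector at this gene. The transcriptional readouts PTCH1 (17.2 against 14.8 RPKM) and GLI1 (21.8 against 15.5 RPKM) were under 2-fold apart. All these pairs give HOXD13 wt against PITX1.

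In the WNT list 4 of 27 kept genes were higher, with a median of 0.11. SFRP2, a secreted frizzled-related protein that binds WNT, stood at 100.2 RPKM in HOXD13 wt, 32.3 in PITX1, 34.8 in Q317K, 45.99 in Q317R and 98.6 in the empty vector and was 3.11-fold higher (2.88 to 3.36). WIF1, a secreted WNT inhibitor, was at 40.6 RPKM in HOXD13 wt against 16.5 in PITX1. LGR5, a receptor for R-spondins, was at 9.36 RPKM in HOXD13 wt against 2.62 in PITX1, and its ligand RSPO2 at 9.78 RPKM in HOXD13 wt against 3.45 in PITX1, on 92 and 35 reads. PITX1 was the lowest of the 5 libraries for SFRP2, LGR5 and RSPO2. The related FRZB (184 against 208 RPKM) and DKK3 (39.5 against 39.6 RPKM) were level, in HOXD13 wt against PITX1.

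The IGF pathway list had the highest median of the 31 lists, 1.16 on the log2 scale against 0.03 over all kept genes. Of its 9 kept genes, 5 were higher and 1 lower, or 66.7% against 6.35% over all kept genes. STC2 (stanniocalcin 2), a secreted inhibitor of the protease PAPPA, stood at 484 RPKM in HOXD13 wt, 41.8 in PITX1, 46.5 in Q317K, 166 in Q317R and 337 in the empty vector and was 11.6-fold higher in HOXD13 wt (10.7 to 12.5). PAPPA, which frees IGF from its binding proteins, stood at 35.5 RPKM in HOXD13 wt, 10.98 in PITX1, 15.7 in Q317K, 35.8 in Q317R and 17.2 in the empty vector, so the protease and its inhibitor were both higher. IGFBP7, a secreted IGF-binding-protein-related factor, stood at 252 RPKM in HOXD13 wt, 37.6 in PITX1, 105 in Q317K, 50.1 in Q317R and 58.6 in the empty vector and was 6.71-fold higher (6.18 to 7.29). The ligand IGF2 (35.1 against 13.4 RPKM) and the adaptor IRS2 (50.2 against 21.8 RPKM) were higher in HOXD13 wt against PITX1. The binding protein IGFBP2 was the lower gene, at 25.3 RPKM in HOXD13 wt, 74.6 in PITX1, 202 in Q317K, 69.5 in Q317R and 31.9 in the empty vector.

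Retinoic acid genes differed in both directions. LRAT, which stores retinol as esters, stood at 71.8 RPKM in HOXD13 wt, 6.07 in PITX1, 8.94 in Q317K, 25.8 in Q317R and 28.1 in the empty vector, 11.8-fold higher in HOXD13 wt than in PITX1 (9.64 to 14.6). DHRS3, which reduces retinal back to retinol, stood at 77.8 RPKM in HOXD13 wt against 25.8 in PITX1, and the receptor RARB, itself a known target of retinoic acid, at 17.9 RPKM in HOXD13 wt against 8.004 in PITX1. On the other side, STRA6, the membrane receptor that takes up retinol, stood at 9.38 RPKM in HOXD13 wt, 52.03 in PITX1, 7.82 in Q317K, 9.46 in Q317R and 11.6 in the empty vector, 5.55-fold lower in HOXD13 wt (4.86 to 6.35), with PITX1 far above every other library. The receptor RXRG was at 14.6 RPKM in HOXD13 wt, 52.9 in PITX1, 16.5 in Q317K, 19.2 in Q317R and 32.3 in the empty vector. ALDH1A2, which makes retinoic acid, was at 2.02 RPKM in HOXD13 wt against 6.42 in PITX1, and CYP26B1, which degrades it, at 78.2 RPKM in HOXD13 wt against 97.5 in PITX1. With 3 higher and 3 lower among 15 kept, or 40%, the median was 0.02.

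Of 7 kept Notch genes 1 was called, LFNG (lunatic fringe), a glycosyltransferase that modifies Notch receptors, at 41.3 RPKM in HOXD13 wt, 176 in PITX1, 93.003 in Q317K, 72.3 in Q317R and 51.4 in the empty vector, 4.25-fold lower in HOXD13 wt (3.81 to 4.75). The target HEY1 was at 34.3 RPKM in HOXD13 wt against 68.3 in PITX1, just under 2-fold, and the list median was −0.47. Among guidance receptors and ligands, 2 of 22 were higher and 4 lower, with a median of 0.00. EPHB1, a receptor for ephrin-B ligands, stood at 179 RPKM in HOXD13 wt, 52.8 in PITX1, 59.8 in Q317K, 32.1 in Q317R and 97.6 in the empty vector and was 3.38-fold higher (3.24 to 3.53), and the semaphorin SEMA5A was at 139 RPKM in HOXD13 wt against 59.8 in PITX1. NRP1, a receptor of class 3 semaphorins and VEGF (14.6 against 38.7 RPKM), its ligand SEMA3A (6.22 against 16.6 RPKM), EPHA2 (39.9 against 83.9 RPKM) and PLXNC1 (4.72 against 10.6 RPKM) were lower, in HOXD13 wt against PITX1.

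A granin had the second largest ratio among genes with a symbol. CHGB (chromogranin B), which builds secretory granules, stood at 359 RPKM in HOXD13 wt, 12.7 in PITX1, 48.98 in Q317K, 25.1 in Q317R and 16.8 in the empty vector, 28.3-fold higher in HOXD13 wt than in PITX1 (25.8 to 30.98) and far higher there than in any other library. CPE, a carboxypeptidase that trims peptide hormones, stood at 236 RPKM in HOXD13 wt, 42.3 in PITX1, 24.1 in Q317K, 102 in Q317R and 31.2 in the empty vector and was 5.58-fold higher (5.27 to 5.91), and the secreted NELL2 was at 84.5 RPKM in HOXD13 wt, 26.6 in PITX1, 136 in Q317K, 191 in Q317R and 8.68 in the empty vector. The other genes of the list that were called were lower: the neuropeptide NPY (5.65 against 20.2 RPKM), the granin SCG2 (10.5 against 33.7 RPKM), the vasoactive peptides EDN1 (6.94 against 20.5 RPKM) and ADM (33.3 against 87.7 RPKM) and the carboxypeptidase CPM (5.27 against 13.4 RPKM), in HOXD13 wt against PITX1. This made 3 higher and 5 lower among 16 kept, around a median of −0.18.

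In sterol and lipid metabolism 2 of 15 kept genes were higher and 2 lower, with a median of −0.50. SCP2, a sterol carrier protein, stood at 241 RPKM in HOXD13 wt, 32.6 in PITX1, 40.02 in Q317K, 52.8 in Q317R and 28.6 in the empty vector and was 7.39-fold higher in HOXD13 wt (6.97 to 7.84). AKR1D1, a steroid 5-beta-reductase, stood at 258 RPKM in HOXD13 wt, 50.8 in PITX1, 33.8 in Q317K, 85.6 in Q317R and 29.5 in the empty vector and was 5.08-fold higher (4.75 to 5.45). HOXD13 wt was the highest of the 5 libraries for both. APOA1, the main apolipoprotein of high-density lipoprotein, stood at 13.97 RPKM in HOXD13 wt, 126 in PITX1, 57.5 in Q317K, 16.8 in Q317R and 49.1 in the empty vector and was 9.04-fold lower (7.78 to 10.6), and the acyl-CoA synthetase ACSBG2 was at 9.52 RPKM in HOXD13 wt against 24.1 in PITX1. Enzymes of cholesterol synthesis such as HMGCS1 (54.5 against 57.99 RPKM) and SQLE (20.01 against 32.3 RPKM) were under 2-fold apart.

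Lists of growth, energy metabolism and interferon response stood near or below the share over all kept genes. None of 23 kept cell division genes was 2-fold apart, with a median of 0.13 and TYMS (15.4 against 9.41 RPKM) and UHRF1 (28.9 against 42.7 RPKM) the widest. None of 48 ribosomal protein genes was, with a median of −0.15 and RPS20 (123 against 189 RPKM) and RPL26 (123 against 168 RPKM) the widest. In glycolysis and hypoxia, 2 of 23 or 8.70% were called, the oxygen-responsive factor HIF1A higher (153 against 64.99 RPKM) and ADM lower, with a median of 0.27. Of 14 interferon response genes 1 was called, IRF1 (3.82 against 8.75 RPKM), with a median of −0.29. Of 18 genes of stress and immediate response 4 or 22.2% were called. CHAC1, a glutathione-degrading enzyme, was higher (344 against 142 RPKM), and NR4A3 (19.1 against 59.7 RPKM), MYC (36.4 against 79.3 RPKM) and FOSL2 (85.8 against 177 RPKM), transcription factors induced by growth signals, were lower, with a median of 0.02. The pairs in brackets give HOXD13 wt against PITX1.

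**Figure D4:**
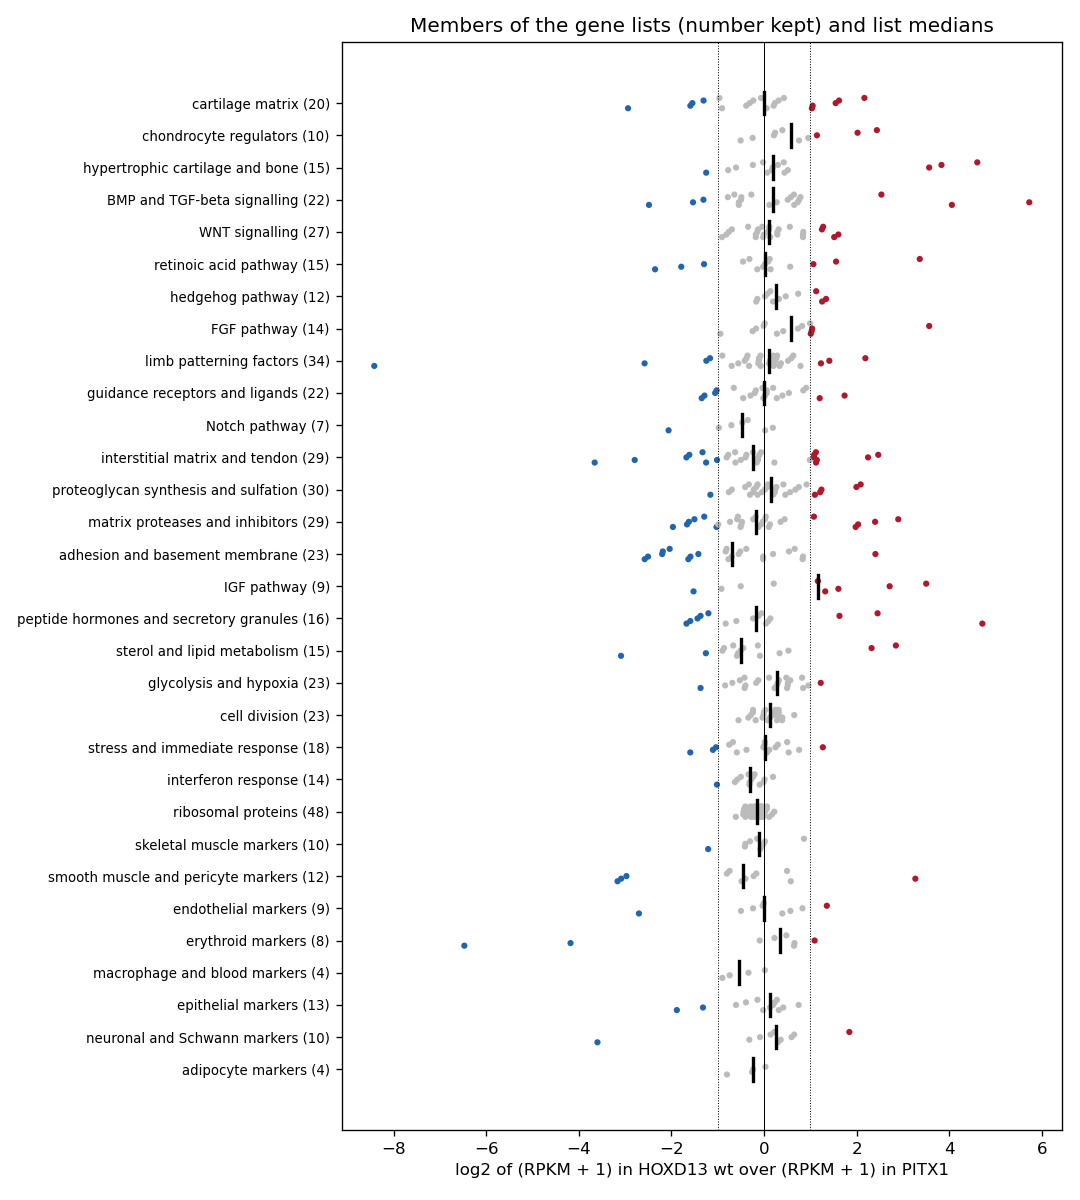
Log2 ratios of (RPKM + 1) in HOXD13 wt over (RPKM + 1) in PITX1 for the kept members of the 31 gene lists, with the number kept in brackets. Each point is a gene, red where at least 2-fold higher and blue where at least 2-fold lower in HOXD13 wt, black bars are list medians, and dotted lines mark 2-fold. The IGF pathway has the highest median, 1.16, and adhesion and basement membrane the lowest, −0.70.

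The remaining genes among the 15 largest ratios in each direction belonged to none of these lists. TMTC1, an enzyme of the endoplasmic reticulum that adds mannose to cadherins, stood at 179 RPKM in HOXD13 wt, 9.68 in PITX1, 43.5 in Q317K, 67.4 in Q317R and 19.9 in the empty vector and was 18.5-fold higher in HOXD13 wt (16.9 to 20.3). PODNL1, a secreted leucine-rich repeat protein, stood at 144 RPKM in HOXD13 wt, 13.3 in PITX1, 13.04 in Q317K, 28.3 in Q317R and 21.4 in the empty vector, 10.8-fold higher (9.59 to 12.2). The myo-inositol transporter SLC5A3 stood at 80.9 RPKM in HOXD13 wt, 7.22 in PITX1, 8.02 in Q317K, 18.6 in Q317R and 13.05 in the empty vector, 11.2-fold higher (8.69 to 14.6). HOXD13 wt was the highest of the 5 libraries for these 3 genes and PITX1 the lowest for TMTC1 and SLC5A3. ITM2C, a small membrane protein, was at 62.4 RPKM in HOXD13 wt against 6.18 in PITX1, the leucine-rich repeat protein LRRC3B at 32.3 RPKM in HOXD13 wt against 2.94 in PITX1 and the sialyltransferase ST6GAL2 at 59.1 RPKM in HOXD13 wt against 6.18 in PITX1. On the lower side, TNFSF4 (OX40 ligand), a cytokine of the TNF family, stood at 4.54 RPKM in HOXD13 wt, 46.2 in PITX1, 50.3 in Q317K, 11.2 in Q317R and 8.88 in the empty vector, 10.2-fold lower in HOXD13 wt (7.41 to 14.3), with Q317K at the level of PITX1. RXFP2, a receptor of relaxin-family peptides, stood at 7.30 RPKM in HOXD13 wt, 63.3 in PITX1, 6.36 in Q317K, 9.04 in Q317R and 10.5 in the empty vector, 8.68-fold lower (7.40 to 10.2), and was high in PITX1 alone.

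The ratio of Q317R over Q317K was set beside that of HOXD13 wt over PITX1, since these ratios share no library. At the homeodomain residue changed in the mutants, PITX1 and Q317K have a lysine, HOXD13 wt a glutamine and Q317R an arginine. The part of this residue in what the ratios share was not tested. Over the 12941 genes that reached 5 RPKM in at least 1 of the 4 libraries, the log2 ratios had a Pearson correlation of 0.42 and a Spearman correlation of 0.38. These describe genes within 1 library each, which are not independent replicates, and no p-value was computed. Of 415 genes at least 2-fold higher in HOXD13 wt than in PITX1 in this set, 120 or 28.9% were at least 2-fold higher in Q317R than in Q317K, against 2.51% of all genes in the set, and 11 were lower. Of 384 genes lower in HOXD13 wt, 119 or 31.0% were lower in Q317R than in Q317K, against 2.43% of all, and 13 were higher. Seen from the other side, the shared higher genes were 36.9% of the 325 genes higher in Q317R, and the shared lower genes 37.9% of the 314 lower ones. The median Q317R over Q317K log2 ratio was 0.57 for the genes higher in HOXD13 wt and −0.62 for the lower ones, against 0.06 for all.

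Single genes show both kinds of pattern. CHRDL2 had a log2 ratio of 5.73 for HOXD13 wt over PITX1 and 3.42 for Q317R over Q317K. For SERPINI1 the values were 2.90 and 2.93, for COMP 2.17 and 2.06, for NOG 2.54 and 2.03, and for CHST1 2.00 and 2.75. On the lower side they were −3.66 and −1.67 for FN1, −2.79 and −1.93 for ELN, −2.58 and −1.90 for NID2, −3.09 and −2.08 for TNFSF4 and −1.97 and −2.69 for SERPINF1. These genes were therefore past 2-fold the same way in both ratios. Others were far apart in HOXD13 wt over PITX1 and under 2-fold in Q317R over Q317K: STRA6 had −2.35 and 0.25, HBE −6.47 and −0.68, RXFP2 −2.95 and 0.45, RGS5 3.27 and 0.11 and CHGB 4.72 and −0.94. EPYC, with −2.94 and 1.74, NR4A3, with −1.59 and 2.85, and IGFBP7, with 2.71 and −1.05, were past 2-fold in opposite directions.

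**Figure D5:**
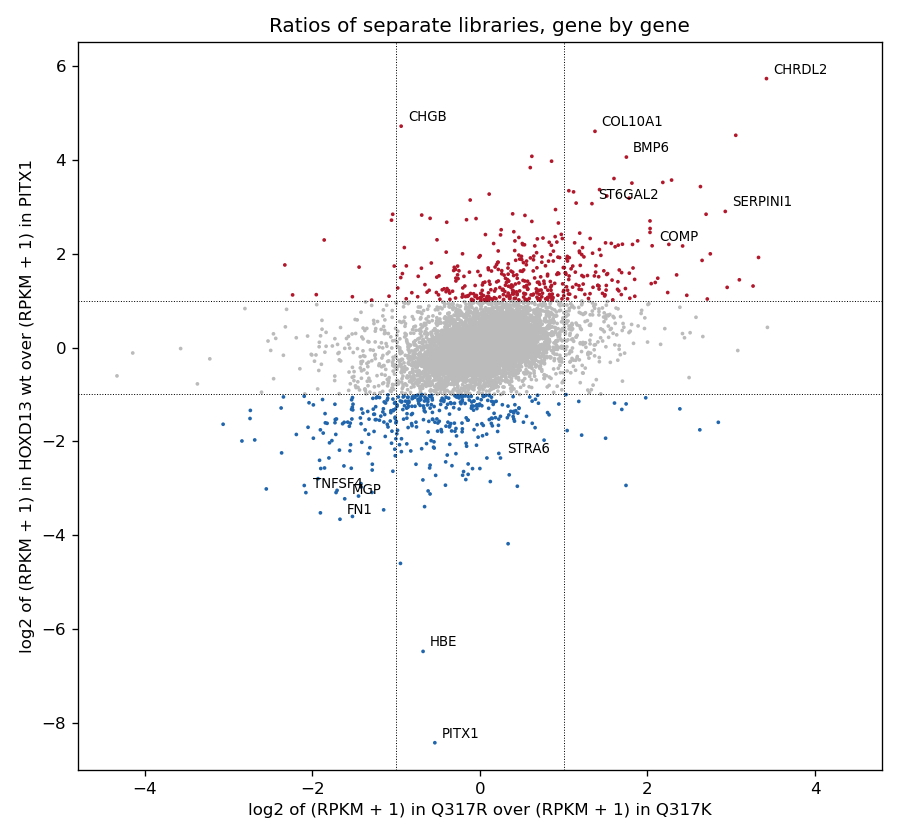
Each point is a gene, with the log2 ratio of (RPKM + 1) in Q317R over Q317K on the horizontal axis and in HOXD13 wt over PITX1 on the vertical axis. Red and blue points are at least 2-fold higher and lower in HOXD13 wt than in PITX1, and dotted lines mark 2-fold. CHRDL2 lies far to the upper right, at 3.42 and 5.73, while PITX1 and HBE lie far down near the middle of the horizontal axis.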

How the data were processed

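RNA values were deposited by the authors as RPKM for 21998 Ensembl transcripts in 5 libraries, per the file headers. For the counting tool, the genome build and the annotation release nothing is stated in the sources used. Libraries were poly(A)-selected and read as 115 bp single reads, per the labels' protocols, which name no strand marking, so a gene and an antisense or overlapping gene cannot be told apart. Groups came from the sample titles, and the column headed "leer" (German for empty) was taken as the empty vector. The peak lists of the series were not used here.

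Since RPKM scales whole reads by length and depth, reads were recovered from the spacing of the values. This gave whole numbers, within 0.001, in all 21998 rows. The rule for keeping genes, the ratio and the 2-fold line are given with the results. With 1 library a side, no count model or test was run.

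Named genes were PITX1 and HOXD13, the 15 largest ratios in each direction among genes with a symbol, up to 5 called members of each of 31 lists by size of ratio, and up to 2 members of a list with none called. One gene that this rule names is not reported here. Levels of other list members, and the genes of the closing section, were chosen after their values were seen. The members and lists were chosen with earlier results of these data known. For 187 UniProt entry names the symbol was written by hand. Promoter motifs were planned and not run, as no promoter sequences were used here. Steps were tested on simulated data. Scripts used Python 3.11.15, numpy 2.4.6, pandas 2.3.3, scipy 1.17.1 and matplotlib 3.10.9.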

Additional observations from a re-analysis of the deposited data

How the results depend on the processing

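With 1 library a side, no setting replaces a replicate, and depth limits the low genes, whose intervals are wide. With a pseudocount of 5 in place of 1 the genes higher in HOXD13 wt numbered 272 and the lower ones 277, since a larger pseudocount pulls low genes together. Under the other settings the counts stayed within 1.5 times the reported 411 and 384: a pseudocount of 0.1 (478 and 436), a minimum of 1 RPKM or none (443 and 400 each), a minimum of 20 RPKM (298 and 300), the longest transcript (411 and 382), the sum over transcripts (427 and 390), the median ratio set to 1 (385 and 409), a trimmed-mean scaling (372 and 423), and intervals wholly past 2-fold (319 and 301). The scalings correspond to log2 shifts of 0.04 (median) and 0.06 (trimmed mean) before the pseudocount, and move low genes by less. Of 109 named genes past 2-fold, all kept their sign with the sum over transcripts. The other settings tried for them could not change a sign: a pseudocount never does, and the median shift of 0.04 is too small. With a pseudocount of 5, 95 stayed past 2-fold. SOX6, ENPP1, LGR5, RSPO2, ALDH1A2, HHIP, FGFR3, FLRT3, FGFR1, SEMA3A, EPHA2, SULF2, IRF1 and CA2 did not, and with the median ratio set to 1 FLRT3 and FGFR1 did not. List medians changed sign only with the median ratio set to 1, for the retinoic acid, guidance and stress lists, all near 0. No paired analysis was possible because each group has 1 library.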

Other observations

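Genes outside every list carried further large differences. They were chosen after their values were seen, as the next largest ratios among genes with a symbol. NFATC1, a calcineurin-regulated transcription factor, stood at 394 RPKM in HOXD13 wt, 55.1 in PITX1, 95.9 in Q317K, 139.8 in Q317R and 142 in the empty vector and was 7.15-fold higher in HOXD13 wt than in PITX1 (6.83 to 7.47). Several secreted or surface proteins stood on the same side. The protease MMP3 was at 24.6 RPKM in HOXD13 wt, 2.58 in PITX1, 6.29 in Q317K, 2.55 in Q317R and 7.37 in the empty vector, the matrix protein MXRA5 at 125 RPKM in HOXD13 wt against 18.1 in PITX1, ISM1 (isthmin 1) at 123 RPKM in HOXD13 wt against 18.5 in PITX1, and RGMA, a membrane-anchored BMP co-receptor, at 125 RPKM in HOXD13 wt, 21.1 in PITX1, 23.4 in Q317K, 28.1 in Q317R and 34.1 in the empty vector. ODC1, the rate-limiting enzyme of polyamine synthesis, stood at 169 RPKM in HOXD13 wt, 34.2 in PITX1, 70.6 in Q317K, 94.7 in Q317R and 45.1 in the empty vector and was 4.94-fold higher (4.62 to 5.29). MRPS6, a mitochondrial ribosomal protein gene that in human overlaps SLC5A3, was at 46.4 RPKM in HOXD13 wt, 8.34 in PITX1, 8.58 in Q317K, 12.2 in Q317R and 9.10 in the empty vector, and where the genes overlap their reads cannot be told apart.

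On the lower side, FHL2, a LIM-domain cofactor, stood at 4.15 RPKM in HOXD13 wt, 38.3 in PITX1, 38.6 in Q317K, 28.8 in Q317R and 5.98 in the empty vector, 9.23-fold lower in HOXD13 wt than in PITX1 (7.33 to 11.8). The beta-tubulin TUBB6 stood at 22.7 RPKM in HOXD13 wt, 113 in PITX1, 100.4 in Q317K, 39.2 in Q317R and 79.6 in the empty vector and nestin (NES), an intermediate filament protein, at 4.43 RPKM in HOXD13 wt, 31.1 in PITX1, 25.2 in Q317K, 6.26 in Q317R and 9.36 in the empty vector. PTGS2, the inducible cyclooxygenase, stood at 22.4 RPKM in HOXD13 wt, 113 in PITX1, 21.1 in Q317K, 15.8 in Q317R and 25.7 in the empty vector, 5.06-fold lower (4.78 to 5.37), and was high in PITX1 alone. The same held for WFIKKN1, a secreted inhibitor of GDF8 and GDF11, at 12.4 RPKM in HOXD13 wt, 86.4 in PITX1, 11.1 in Q317K, 14.4 in Q317R and 19.5 in the empty vector, and for KAZALD1, an IGFBP-related secreted protein, at 19.4 RPKM in HOXD13 wt, 133 in PITX1, 19.04 in Q317K, 16.4 in Q317R and 39.1 in the empty vector. The sialyltransferase ST3GAL1 was at 12.9 RPKM in HOXD13 wt, 97.1 in PITX1, 22.2 in Q317K, 13.5 in Q317R and 42.9 in the empty vector. The endothelial adhesion molecule SELE was at 5.05 RPKM in HOXD13 wt, 33.8 in PITX1, 12.9 in Q317K, 3.52 in Q317R and 4.94 in the empty vector, and the arginase ARG2 at 7.39 RPKM in HOXD13 wt, 39.2 in PITX1, 11.02 in Q317K, 8.86 in Q317R and 8.46 in the empty vector.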
